A study of Mus musculus with 12 samples.

Results

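The Hippo kinase cascade was examined through 10 genes chosen by symbol. They encode the kinases Stk3, Stk4, Lats1, Lats2 and Taok1, the adaptors Sav1, Mob1a and Mob1b, and the upstream activators Nf2 and Wwc1. All 10 were among the 15672 genes of the deposited table. All 10 also passed the filter on low values, log2 CPM above 0 in at least 3 of 12 libraries, which kept 14147 genes for testing. Levels are given in log2 CPM, the log2 of reads scaled to a common library size, so that a difference of 1 is a doubling.

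The libraries are bulk RNA-seq of mouse tumour tissue labelled MB, taken at end point. Medulloblastoma, a tumour of the cerebellum, is the tumour that this combination of alleles is known to give. The 6 SG libraries have the genotype fSMO-M2;hGFAPcre, a Cre-dependent allele of the activated Hedgehog transducer Smoothened together with Cre driven by the human GFAP promoter. The 6 YSGr libraries have both of these and a floxed Yap1 allele in addition (fYap1;fSMO-M2;hGFAPcre), and the design text calls them rescued. Each genotype has 3 males, numbered 1 to 3 in SG and 7 to 9 in YSGr, and 3 females, numbered 4 to 6 and 10 to 12. Age, strain background and the number of animals behind a library are not in the labels. The Cre acts in cells descended from those in which the GFAP promoter was active, so cells of other origin in the tumour, such as macrophages, keep an unrecombined Yap1 gene. The labels do not tie libraries to separate animals, so p-values measure the spread between these libraries, and part of it may be technical.

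Hippo signalling is a kinase relay that restrains the coactivators YAP (Yap1) and TAZ (Wwtr1). MST2 and MST1, the products of Stk3 and Stk4, bind the scaffold SAV1 and phosphorylate MOB1 and the LATS kinases, and TAOK1 can activate the MST kinases. NF2 (merlin) and WWC1 (KIBRA) act upstream, at the membrane, where they bring LATS within reach of its activators. Phosphorylated YAP and TAZ are kept in the cytoplasm or degraded, and unphosphorylated YAP and TAZ enter the nucleus and bind TEAD factors. In the developing cerebellum YAP is known as a growth-promoting factor of granule neuron progenitors downstream of Hedgehog signalling. Lats2 is known as a target gene of YAP in other cells, and the fly relatives of Nf2 and Wwc1 are targets of the fly relative of YAP.

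TEAD factors bind the sequence GGAATG, so the 250 bases before RefSeq transcript starts were searched for it on both strands. These starts can lie inside the gene spans given below, which are from another annotation. RefSeq windows on GRCm38.p6 matched 9 of the 10 genes, all but Stk3, with 11 windows in all. Only the windows of Mob1a and Sav1 held the motif, against 12.6% of the 32851 windows in the table. The windows shown are those of Wwc1 and Nf2, the genes with the lowest differences between genotypes, and of the 2 genes with a match. Each reads 5′ to 3′ on the strand of its gene, and capitals mark GGAATG or its reverse complement CATTCC. Wwc1 is the window chr11:35980528-35980777 on the minus strand, Nf2 is chr11:4849545-4849794 on the minus strand, Mob1a is chr6:83325789-83326038 on the plus strand, and Sav1 is chr12:69987003-69987252 on the minus strand.
Wwc1: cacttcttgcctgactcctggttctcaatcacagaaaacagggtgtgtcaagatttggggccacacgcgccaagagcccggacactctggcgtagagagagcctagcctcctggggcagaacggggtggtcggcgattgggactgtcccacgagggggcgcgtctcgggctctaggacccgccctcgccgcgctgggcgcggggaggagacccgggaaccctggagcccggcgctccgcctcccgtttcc
Nf2: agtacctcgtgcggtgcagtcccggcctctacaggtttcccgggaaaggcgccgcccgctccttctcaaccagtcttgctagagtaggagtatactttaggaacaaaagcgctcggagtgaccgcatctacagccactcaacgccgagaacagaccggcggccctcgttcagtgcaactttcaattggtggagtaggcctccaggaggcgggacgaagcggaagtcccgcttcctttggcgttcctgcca
Mob1a: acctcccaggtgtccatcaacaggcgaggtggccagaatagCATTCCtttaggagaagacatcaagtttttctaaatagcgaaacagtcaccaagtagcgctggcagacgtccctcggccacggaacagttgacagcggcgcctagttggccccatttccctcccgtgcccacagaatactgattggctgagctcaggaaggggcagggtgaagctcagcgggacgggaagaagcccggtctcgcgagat
Sav1: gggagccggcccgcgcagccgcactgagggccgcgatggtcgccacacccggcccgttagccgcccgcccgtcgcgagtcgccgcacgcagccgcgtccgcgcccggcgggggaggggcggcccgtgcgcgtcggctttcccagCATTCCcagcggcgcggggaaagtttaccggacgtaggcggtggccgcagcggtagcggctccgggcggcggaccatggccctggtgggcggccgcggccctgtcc
The Mob1a and Sav1 windows each held 1 match, and the letters were not in the windows of Wwc1 and Nf2. A match describes the letters of the window and does not show binding.

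Each library held 8854766 to 9478651 estimated reads, and 1 read was worth 0.100 to 0.111 CPM. Yap1 (chr9:7931999-8004596) stood at 4.29 to 4.80 log2 CPM in SG and at -0.02 to 1.82 in YSGr, with no overlap, which checks the labels. The granule neuron progenitor markers Zic1, Barhl1 and Sfrp1 led their list, and none of its 10 genes was at 0 in all libraries. Within SG, male 2 stood apart. SG male 2 correlated with the other SG libraries across genes at r = 0.958 to 0.961, while other SG pairs reached 0.990. In SG male 2 the deviation of a gene from its genotype fell with transcript length, with a Spearman correlation of -0.679 across 14044 genes, against -0.205 to 0.21 in the other 11 libraries. With genes in 4 equal groups by length, its median deviation was 0.54 log2 units in the shortest group, up to 2072 bases, and -0.57 in the longest, over 4758 bases. YSGr male 8 also stood apart, with an oligodendrocyte marker sum of 10553 CPM against at most 3029 CPM in the other 11 libraries. Its correlation with the other YSGr libraries was 0.896 to 0.947, while YSGr pairs reached 0.979. YSGr female 12 also fell to 0.896. With libraries weighted by their consistency, SG male 2 had 0.102, against 0.838 or more in most others. YSGr female 11 had 0.27, YSGr male 8 had 0.276 and YSGr female 12 had 0.417. Results below are given with all libraries and, where it matters, without SG male 2 or without SG male 2 and YSGr male 8 together.

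**Figure D1:**
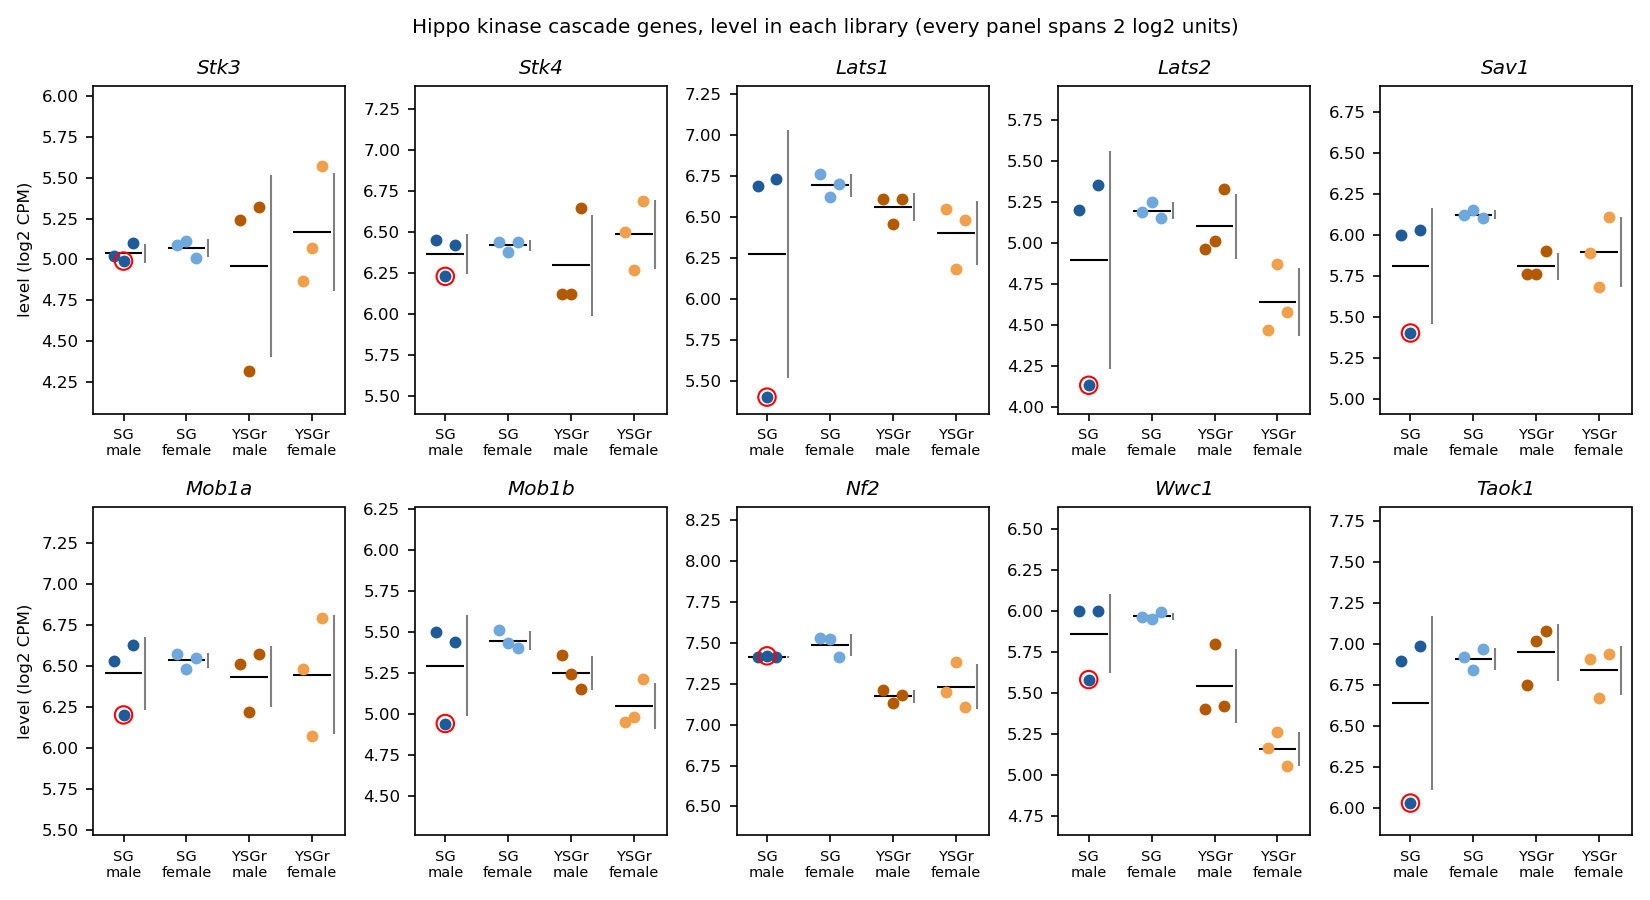
Level of each of the 10 Hippo genes in log2 CPM (vertical axes, each spanning 2 log2 units) in each genotype and sex. Points are libraries, black lines are group means and grey bars are ± 1 SD (n = 3); SG male 2, circled in red, is the lowest SG library for 9 of the 10 genes, and Nf2 is the gene with all 6 YSGr points below all 6 SG points.

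Wwc1 fell in YSGr tumours and was the only one of the 10 genes to pass the test with all libraries included. Nf2 was lower in every YSGr library than in every SG library but narrowly missed the threshold. The 4 core kinases Stk3, Stk4, Lats1 and Lats2 did not pass. That is 1 of 10 genes lower and 0 higher, at a Benjamini-Hochberg adjusted p under 0.05 over all 14147 genes in limma. Of the other 9, Nf2 alone had an unadjusted p under 0.05 (0.0077). Across all genes 5.27% were called lower and 6.16% higher, or 11.4% in either direction. The count for the 10 genes is therefore near the background. Their median difference was -0.08 on the log2 scale, against -0.0048 for all genes tested.

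SG male 2 set much of the spread behind that count. It was the lowest SG library for 9 of the 10 genes, all but Nf2, against 36.0% of all genes tested. Its distance from the median of the other 5 SG libraries was -1.29 log2 units for Lats1, -1.07 for Lats2, -0.89 for Taok1 and -0.71 for Sav1. The distance was -0.50 for Mob1b, -0.41 for Wwc1, -0.36 for Mob1a, -0.20 for Stk4 and -0.10 for Stk3, while Nf2 did not deviate (0.00). Transcripts of 5 of the 10 genes lie in the longest group, over 4758 bases. Among the 10 genes the distance and the transcript length had a Spearman correlation of -0.418, a description over 10 genes of 1 library. Sav1 was low in SG male 2 although its transcript is the shortest of the 10, with 2524 bases. Without SG male 2, 4 of the 10 genes passed lower (Wwc1, Nf2, Lats2 and Mob1b) and 0 higher, against 6.58% of all genes lower. Without both SG male 2 and YSGr male 8, 3 of the 10 passed lower (Wwc1, Nf2 and Mob1b), against 6.98%. Leaving out the lowest SG library raises the SG mean of a gene and narrows its SG spread. SG male 2 was lowest more often among the 10 genes than among all genes. The shares of all genes are therefore not a like background for these 2 counts.

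**Figure D2:**
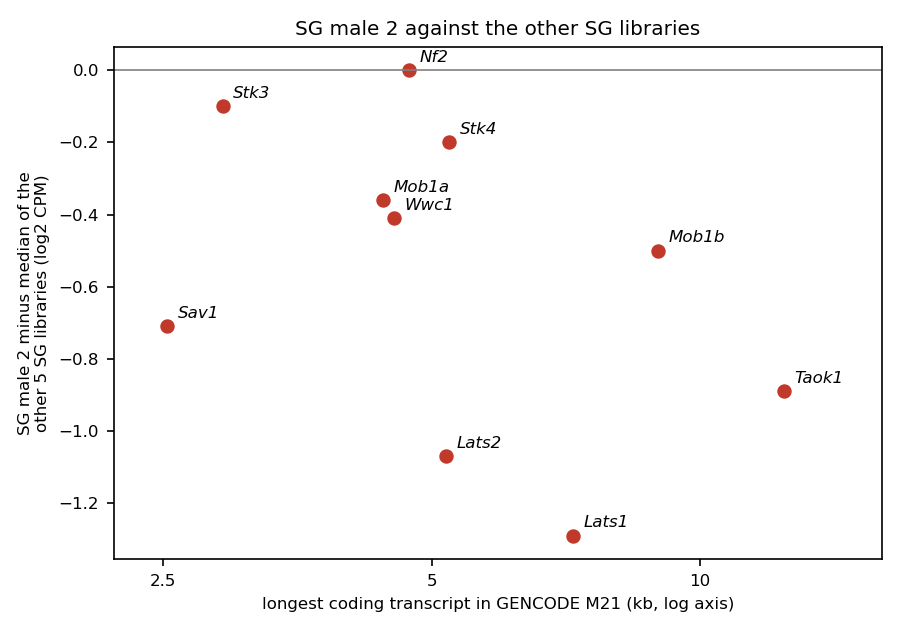
Difference between SG male 2 and the median of the other 5 SG libraries (vertical axis, log2 CPM) against the length of the longest coding transcript (horizontal log axis, kb). Each point is 1 Hippo gene; Lats1, Lats2 and Taok1 lie lowest and Nf2 lies at 0.00.

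**Figure D3:**
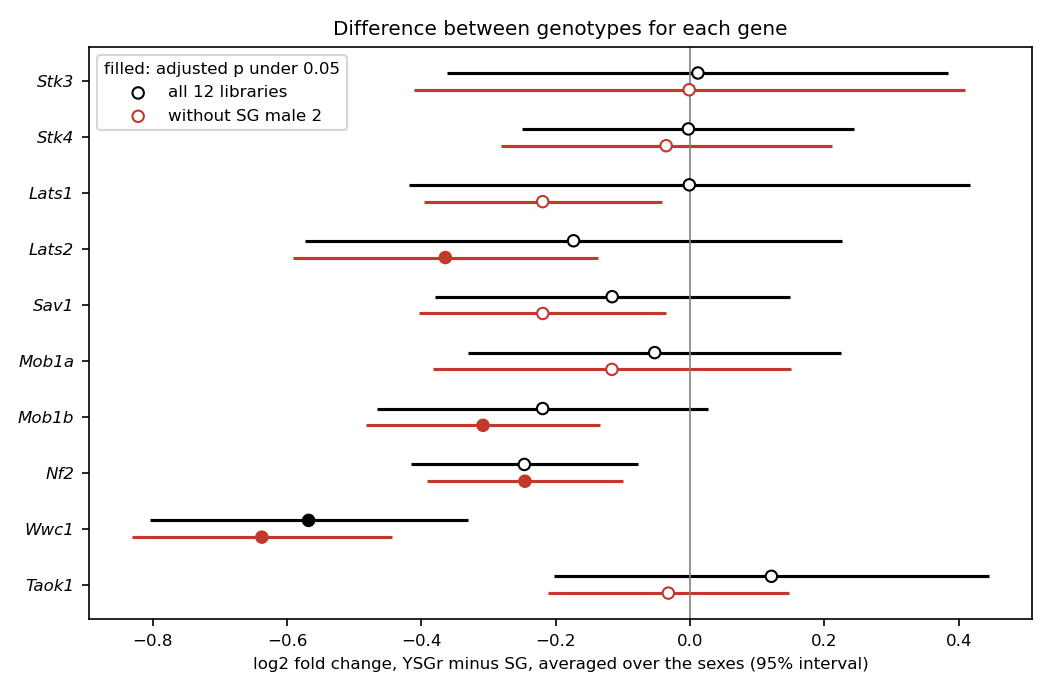
Log2 fold change of YSGr against SG, averaged over the sexes (horizontal axis), for each Hippo gene with its 95% interval, with all 12 libraries in black and without SG male 2 in red. Filled points have an adjusted p under 0.05: Wwc1 with all libraries, and Wwc1, Nf2, Mob1b and Lats2 without SG male 2.

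Wwc1 (chr11:35838400-35980527, minus strand) encodes KIBRA, a scaffold with WW domains that promotes LATS activity. Its level was 6.00, 5.58 and 6.00 log2 CPM in SG males 1 to 3 and 5.96, 5.95 and 5.99 in SG females 4 to 6. In YSGr it was 5.40, 5.80 and 5.42 in males 7 to 9 and 5.16, 5.26 and 5.05 in females 10 to 12. All 3 YSGr females lay below all SG libraries. Among males the groups overlapped through the low SG male 2 and the high YSGr male 8, and without SG male 2 they did not overlap. Estimated reads were 431 to 621 in SG and 297 to 523 in YSGr. Averaged over the sexes Wwc1 fell by 0.57 log2 units (SE 0.11, 95% interval -0.80 to -0.33, limma adjusted p = 0.0057, n = 6 per genotype). Mean CPM was 1.47-fold higher in SG than in YSGr. The difference was between -0.64 and -0.53 with any 1 library left out, and it passed the test each time. It was -0.70 without SG male 2 and YSGr male 8 (adjusted p = 0.00029).

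Nf2 (chr11:4765845-4849536, minus strand) encodes merlin, a membrane-associated tumour suppressor lost in a form of neurofibromatosis. The level was 7.41, 7.42 and 7.41 log2 CPM in the SG males and 7.53, 7.52 and 7.41 in the SG females. YSGr males had 7.21, 7.13 and 7.18, and YSGr females had 7.20, 7.38 and 7.11. Every YSGr library lay below every SG library, which held for 2.96% of all genes and for no other of the 10. With 1242 to 1819 estimated reads per library it was among the best covered of these genes. Averaged over the sexes the difference was -0.25 log2 units (SE 0.08, 95% interval -0.42 to -0.08), and the limma adjusted p was 0.0595. Leaving out SG male 2 brought that p to 0.035, and leaving out YSGr female 11, the highest YSGr library, brought it to 0.036. The difference stayed between -0.28 and -0.22 with any 1 library left out.

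Lats1 and Lats2 encode the kinases that phosphorylate YAP and TAZ. Lats2 (chr14:57689662-57758388, minus strand) stood at 5.20, 4.13 and 5.35 log2 CPM in SG males and at 5.19, 5.25 and 5.15 in SG females. It was 4.96, 5.01 and 5.33 in YSGr males and 4.47, 4.87 and 4.58 in YSGr females. The YSGr females lay below all SG females, while YSGr males overlapped SG males. The averaged difference was -0.17 (95% interval -0.57 to 0.23, adjusted p = 0.56). Without SG male 2 it was -0.36 (95% interval -0.59 to -0.14, adjusted p = 0.041), and without YSGr male 8 as well it was -0.34 (adjusted p = 0.062). The annotated gene Gm49361 overlaps Lats2 on the same strand and shares 56.5% of the 50-base words of the Lats2 transcript. Gm49361 has no values in the deposited table. How reads common to both were assigned is not given in the sources used here, so Lats2 levels carry that uncertainty.

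Lats1 (chr10:7681214-7716460, plus strand) was 6.69, 5.40 and 6.73 log2 CPM in SG males and 6.76, 6.62 and 6.70 in SG females. In YSGr it was 6.61, 6.46 and 6.61 in males and 6.55, 6.18 and 6.48 in females. SG male 2 had 380 estimated reads for Lats1, against 897 to 1066 in the other SG libraries. Apart from that library, all YSGr values lay below all SG values. With all libraries the averaged difference was -0.0010 (95% interval -0.42 to 0.42, adjusted p = 1.00 after rounding). It was -0.22 without SG male 2 (95% interval -0.40 to -0.04, adjusted p = 0.095), which did not pass.

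Stk3 and Stk4, which encode MST2 and MST1, had means that differed little between genotypes but wider spread in YSGr. The SD was also the larger in YSGr for 63.8% of all genes. Stk3 (chr15:34875496-35178921, minus strand) averaged 5.05 ± 0.05 log2 CPM in SG and 5.06 ± 0.44 in YSGr (SD, n = 6). Its lowest value, 4.32, was in YSGr male 8 and its highest, 5.57, in YSGr female 12, with 186 and 426 estimated reads. Stk4 (chr2:164070322-164155524, plus strand) averaged 6.39 ± 0.08 in SG, from 6.23 to 6.45, and 6.39 ± 0.26 in YSGr, from 6.12 to 6.69. For Stk3 the averaged difference was 0.01 (95% interval -0.36 to 0.38, adjusted p = 0.97). For Stk4 it was -0.0024 (95% interval -0.25 to 0.24, adjusted p = 0.99). The intervals leave room for changes of that size in either direction.

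Taok1 (chr11:77529162-77607815, minus strand) encodes a kinase that activates the MST kinases, and it has the longest transcript of the 10, with 12409 bases. Its level was 6.90, 6.03 and 6.99 log2 CPM in SG males and 6.92, 6.84 and 6.97 in SG females. It ranged from 6.67 to 7.08 in YSGr, within which all SG libraries but SG male 2 lay. YSGr minus SG was 0.12 on average (95% interval -0.20 to 0.45, adjusted p = 0.63) with all libraries and -0.03 (95% interval -0.21 to 0.15) without SG male 2.

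Of the 3 adaptors, 0 passed in limma with all libraries and 0 had an unadjusted p under 0.05, while Mob1b passed without SG male 2. Mob1b (chr5:88720855-88764220, plus strand) encodes an activating subunit of the LATS kinases. It was 5.50, 4.94 and 5.44 log2 CPM in SG males and 5.51, 5.43 and 5.40 in SG females. YSGr males had 5.36, 5.24 and 5.15, and YSGr females had 4.95, 4.98 and 5.21. SG male 2 lay just below the lowest YSGr library, and the other 5 SG libraries lay above all 6 YSGr libraries. The averaged difference was -0.22 (95% interval -0.47 to 0.03, adjusted p = 0.22), and without SG male 2 it was -0.31 (95% interval -0.48 to -0.13, adjusted p = 0.029). Its paralogue Mob1a (chr6:83326016-83343776, plus strand) ranged from 6.20 to 6.63 in SG and from 6.07 to 6.79 in YSGr, with a difference of -0.05 (95% interval -0.33 to 0.23, adjusted p = 0.82). The YSGr extremes of Mob1a were both female, 6.07 in YSGr female 11 and 6.79 in YSGr female 12.

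Sav1 (chr12:69965012-69987002, minus strand) encodes the scaffold that holds the MST kinases. It ranged from 5.40 to 6.15 log2 CPM in SG and from 5.68 to 6.11 in YSGr. The averaged difference was -0.12 (95% interval -0.38 to 0.15, adjusted p = 0.56), and it was -0.22 without SG male 2 (adjusted p = 0.105). With libraries weighted by their consistency it was -0.21 and passed (adjusted p = 0.019), in a fit that called 17.9% of all genes lower. Atl1, on the opposite strand, overlaps the gene by 1406 bases and shares 52.0% of the 50-base words of the Sav1 transcript. Whether counting used strand is not given, so reads of Sav1 and Atl1 may not be told apart. The other 8 genes shared at most 0.405% of such words with any other transcript, and Wwc1, Stk3, Stk4 and Mob1a shared none.

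The series title raises sex, so each sex was tested within the same fit. Yap1 itself differed by -4.32 log2 units in females and by -2.96 in males. Its levels were 1.82, 1.72 and 0.73 log2 CPM in YSGr males and 0.21, 0.55 and -0.02 in YSGr females. The female effect minus the male effect for Yap1 was -1.36 (SE 0.40, limma unadjusted p = 0.0051, adjusted p = 0.43), which did not pass after adjustment over all genes. All 3 YSGr males lay above all 3 YSGr females. Equal loss of Yap1 in the sexes can therefore not be assumed, and its part in the differences by sex was not tested. In females Wwc1 fell by 0.81 log2 units (SE 0.15, adjusted p = 0.014), which is 1 of 10 genes lower against 1.87% of all genes. It lost the threshold when any SG female or YSGr female 10 was left out, with adjusted p-values of 0.061 to 0.080 and differences of -0.82 to -0.80. In males 0 of the 10 genes passed in limma, against 7.85% of all genes, and 0 had an unadjusted p under 0.05. The male difference in Wwc1 was -0.32 (SE 0.15, adjusted p = 0.18), and it was -0.59 without SG male 2 and YSGr male 8 (adjusted p = 0.028), where 0.755% of all genes were called lower in males. Lats2 in females differed by -0.55 (adjusted p = 0.35), and it passed without SG male 2 (adjusted p = 0.041), which changes the shared spread but no female value. That made 2 of 10 genes lower in females, against 3.2% of all genes. Nf2 differed by -0.26 in females (adjusted p = 0.29) and by -0.24 in males (adjusted p = 0.17), neither of which passed.

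All 3 YSGr females lay below all 3 SG females for 5 of the 10 genes, Lats1, Lats2, Mob1b, Nf2 and Wwc1, against 13.9% of all genes. In males this held for Nf2 alone, against 18.0%. Leaving out SG male 2 made it 5 genes in males also (Lats1, Sav1, Mob1b, Nf2 and Wwc1), against 26.0%. Over all libraries but SG male 2 it held for 4 genes (Lats1, Mob1b, Nf2 and Wwc1), against 5.1%. Leaving out a library can only add to such counts. SG male 2 was the lowest SG library for 9 of the 10 genes but for 36.0% of all genes, so the shares are not a like background. The point estimates of Lats1 and Lats2 had opposite signs in the sexes, -0.29 and -0.55 in females against 0.28 and 0.21 in males. Without SG male 2 the male values were -0.15 and -0.17. The female effect minus the male effect was -0.76 for Lats2 (95% interval -1.56 to 0.04, adjusted p = 0.43), -0.57 for Lats1 (adjusted p = 0.52) and -0.49 for Wwc1 (95% interval -0.96 to -0.02, adjusted p = 0.43). In that test 0 of the 10 genes passed in limma, 1 had an unadjusted p under 0.05 (Wwc1), and 0.00707% of all genes passed.

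**Figure D4:**
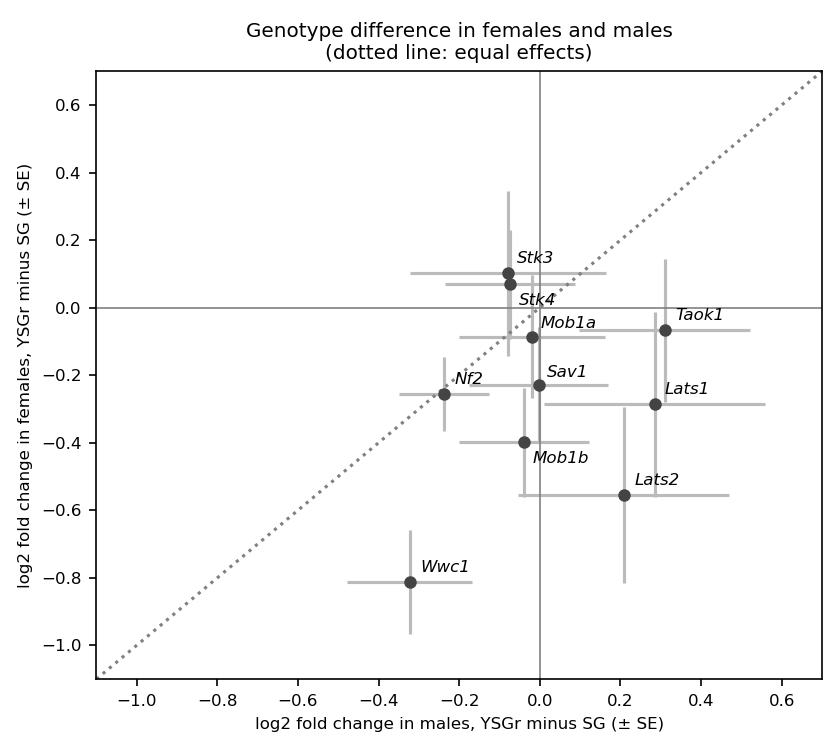
Log2 fold change of YSGr against SG in females (vertical axis) against that in males (horizontal axis), with ± 1 SE bars, for the 10 Hippo genes with all 12 libraries. Wwc1 lies lowest in both sexes, and Lats1, Lats2 and Taok1 lie right of 0 in males, where the comparison includes SG male 2.

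The cascade has 3 pairs of paralogues, and the balance within a pair is a log2 ratio inside 1 library that does not depend on scaling between libraries. Lats1 minus Lats2 was 1.44 ± 0.12 log2 units in SG and 1.61 ± 0.33 in YSGr (SD, n = 6). The difference of 0.17 gave p = 0.235 in an exact two-sided permutation test of genotype within sex, and 0.3525 after adjustment over the 3 pairs. SG male 2 had the lowest SG value, 1.27. In YSGr the ratio ran from 1.28 in male 9 to 2.08 in female 10, the YSGr female with the lowest Lats2. Mob1a minus Mob1b was 1.12 ± 0.09 in SG and 1.29 ± 0.25 in YSGr, a difference of 0.17 (exact permutation p = 0.195, adjusted 0.3525). With 1 library left out the difference in the Lats balance ran from 0.09 without YSGr female 10 to 0.29 without YSGr female 11, where the exact permutation p was 0.04 and the adjusted value 0.12. That in the Mob1 balance ran from 0.11 without YSGr male 9 to 0.25 without YSGr female 11 (exact permutation p = 0.09). Stk3 minus Stk4 was -1.34 ± 0.08 in SG and -1.33 ± 0.34 in YSGr (exact permutation p = 0.935). Its YSGr values ran from -1.80 in male 8 to -0.87 in male 7, both males. The smallest p that the 400 arrangements can give is 0.005.

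Whether the YSGr libraries differed more from each other than the SG libraries did depended on SG male 2. The SD over the 5 other SG libraries was 0.02 to 0.08 log2 units for the 10 genes, with a median of 0.05. Over the 6 YSGr libraries it was 0.10 to 0.44, with a median of 0.21. The YSGr SD was the larger for 10 of 10 genes, and for 90.2% of all genes. With SG male 2 included it was the larger for 5 of 10 genes and for 63.8% of all genes. YSGr male 8, which also stood apart, was kept in both comparisons. Leaving out SG male 2 trims the SG side only, so the counts without it do not compare the genotypes on like terms.

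Levels of different genes were ordered as CPM per kb of the longest coding transcript, as means over the 5 SG libraries other than SG male 2. Nf2 was highest, with 37.2 ± 1.67 CPM per kb (SD, n = 5), followed by Sav1 with 26.7 ± 1.14, Mob1a with 21.2 ± 0.80 and Stk4 with 16.4 ± 0.31. Lats1 with 14.4 ± 0.54 and Wwc1 with 13.9 ± 0.22 came next and overlapped, so that their order is not resolved. Below them were Stk3 with 11.4 ± 0.38, Taok1 with 9.77 ± 0.41, Lats2 with 7.18 ± 0.40 and Mob1b with 4.87 ± 0.16 CPM per kb. No other neighbours in that order overlapped between libraries. The order takes the longest coding transcript as the expressed one, and Sav1 and Lats2 may share reads with Atl1 and Gm49361. Likeness between libraries does not address either limit. The YSGr libraries, with none left out, spanned wider ranges than the 5 SG libraries other than SG male 2, for example 6.77 to 16.2 CPM per kb for Stk3.

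The 10 genes did not vary as 1 block. Over the 12 libraries the 45 pairs of genes had a median Pearson correlation of 0.409, from -0.356 to 0.918, a description over libraries that include SG male 2. The 3 genes whose levels followed Wwc1 most closely over the 12 libraries were Caskin2 (r = 0.961), Csgalnact1 (r = 0.953) and Sox8 (r = 0.951). Those of Nf2 were Col18a1 (r = 0.947), Clic6 (r = 0.939) and Gpr50 (r = 0.930). Amot, whose product binds YAP, was the closest to Lats2 (r = 0.952, and 0.936 without SG male 2), ahead of Alkbh5 and Aldh6a1. Lats1 was closest to Btbd7, Elf1 and Son, with r = 0.984 to 0.986 and 0.906 to 0.921 without SG male 2. Evi5 was closest to Mob1b (r = 0.966), Pias2 to Sav1 (r = 0.973), Zfp236 to Taok1 (r = 0.982), Ppp4r3a to Mob1a (r = 0.950), Csnk1g3 to Stk4 (r = 0.930) and Ints7 to Stk3 (r = 0.907). Without SG male 2 these values were 0.882 for Zfp236 and 0.922 to 0.956 for the rest. With the means of each genotype and sex removed, Caskin2, Csgalnact1 and Sox8 had 0.834, 0.791 and 0.703 with Wwc1. Col18a1, Clic6 and Gpr50 then had 0.899, 0.763 and 0.712 with Nf2. The closest genes of the other members then had 0.923 to 0.988. The libraries share genotype and sex groups, so these values describe likeness in this set alone.

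Genes around the cascade were read from lists of Hippo pathway genes. Of 18 other upstream scaffolds and polarity genes tested, 3 fell and 1 rose, against 5.27% and 6.16% of all genes, with a median difference of -0.19. Wwc2, the paralogue of Wwc1, fell by 0.69 log2 units (adjusted p = 0.036) but lost that call in 9 of 12 fits with 1 library left out. Crb2, a member of the Crumbs polarity complex, fell by 1.11 (adjusted p = 0.020), and Llgl1, a basolateral polarity gene, fell by 0.34 (adjusted p = 0.0090). Rassf5, which binds the MST kinases, rose by 1.17 (adjusted p = 0.020). The call of Crb2 was lost without SG female 4 or 5, and that of Rassf5 without SG female 5 or YSGr female 10. In the fit without SG male 2, 5 of the 18 fell and 1 rose, against 6.58% and 6.56% of all genes. The distance of SG male 2 from the median of the other 5 SG libraries was -1.06 log2 units for Wwc2, -1.04 for Crb2 and -0.13 for Llgl1. Leaving out a low SG library raises the SG mean of a gene, so 6.58% is not a like background for this count. Crb2 had as few as 5 estimated reads in a YSGr library, so its fold change is understated by the prior.

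Kinases parallel to the cascade were called at a share near the background. Of 14 MAP4K, TAOK, NDR and related kinases, 1 passed with both sexes averaged, higher in YSGr, against 6.16% of all genes. With SG male 2 left out 2 passed, both higher (Stk38l and Tnik), against 6.56%. The median of the list was 0.10. Stk38l, an NDR kinase, rose by 0.59 log2 units (adjusted p = 0.022), with all YSGr above all SG libraries, a call lost without SG female 6. In the test in males alone the list median was 0.23 and 2 of the 14 rose, against 4.43% of all genes: Mink1 by 0.88 (adjusted p = 0.033) and Map4k2 by 1.10 (adjusted p = 0.029). Mink1 encodes a kinase of the MAP4K family. On the log2 CPM scale Mink1 was at 6.79, 7.35 and 6.56 in YSGr males 7, 8 and 9, and Map4k2 at 4.98, 6.02 and 4.80, so YSGr male 8 was the highest of the 3 for both. With that library left out the male differences were 0.65 (adjusted p = 0.118) and 0.72 (adjusted p = 0.060). With SG male 2 left out instead they were 0.83 (adjusted p = 0.086) and 1.10 (adjusted p = 0.072).

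Among inhibitors of the cascade, Ajuba had the largest fall of the listed pathway genes after Yap1. Of 18 STRIPAK and other inhibitor genes tested, 3 passed, all lower, against 5.27% of all genes called lower, with a list median of -0.06. With SG male 2 left out, 2 passed (Ajuba and Limd1), against 6.58%. All 3 encode LIM proteins of the Ajuba family, which bind LATS kinases and limit their action on YAP. Ajuba was 3.18, 3.59 and 3.53 log2 CPM in SG males and 3.63, 3.83 and 3.97 in SG females. YSGr males had 1.86, 1.46 and 2.25, and YSGr females had 1.88, 1.55 and 0.99. Every YSGr library lay well below every SG library, and the averaged difference was -1.96 (SE 0.19, adjusted p = 8.9e-05). The mean CPM of Ajuba was 3.99-fold higher in SG. Limd1 fell by 0.58 (adjusted p = 0.0041), passed in every fit with 1 library left out, and overlapped between genotypes through SG male 2, at 5.68, and YSGr female 12, at 5.76. Wtip fell by 0.55 (adjusted p = 0.047) and lost the call in 11 of 12 such fits.

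Downstream of the kinases, 1 of 14 genes for retention or degradation of YAP and TAZ passed, higher in YSGr, against 6.16% of all genes. Btrc, an F-box subunit that targets them for degradation, rose by 0.34 log2 units (adjusted p = 0.047) and lost the call in 10 of 12 fits with 1 library left out. In the fit without SG male 2, Btrc passed higher (0.29, adjusted p = 0.046) and 3 genes passed lower, against 6.58%: Amot (-0.51, adjusted p = 0.0091), Amotl1 (-0.37, adjusted p = 0.046) and Csnk1d (-0.20, adjusted p = 0.040). Without YSGr male 8 as well, these 3 passed lower, against 6.98%, and Btrc did not pass. The distance of SG male 2 from the median of the other 5 SG libraries was -1.11 log2 units for Amot, -1.03 for Amotl1 and 0.04 for Csnk1d. Leaving it out raises the SG means of Amot and Amotl1, so these shares are not a like background. Amot and Amotl1 encode angiomotins, which bind YAP, and Csnk1d encodes a casein kinase that primes it for degradation. Of the 6 effectors tested besides Yap1, 3 fell, against 5.27% of all genes: Wwtr1 by 0.88 (adjusted p = 0.0025), Tead2 by 0.75 (adjusted p = 0.0016) and Tead3 by 0.58 (adjusted p = 0.0082). With SG male 2 left out, 4 of the 6 fell, Vgll4 by 0.45 in addition (adjusted p = 0.013), against 6.58%. For Vgll4 the distance of SG male 2 from the median of the other 5 SG libraries was -0.62 log2 units. That share is therefore not a like background for the added call. Yap1 itself differed by -3.64 (SE 0.20).

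**Figure D5:**
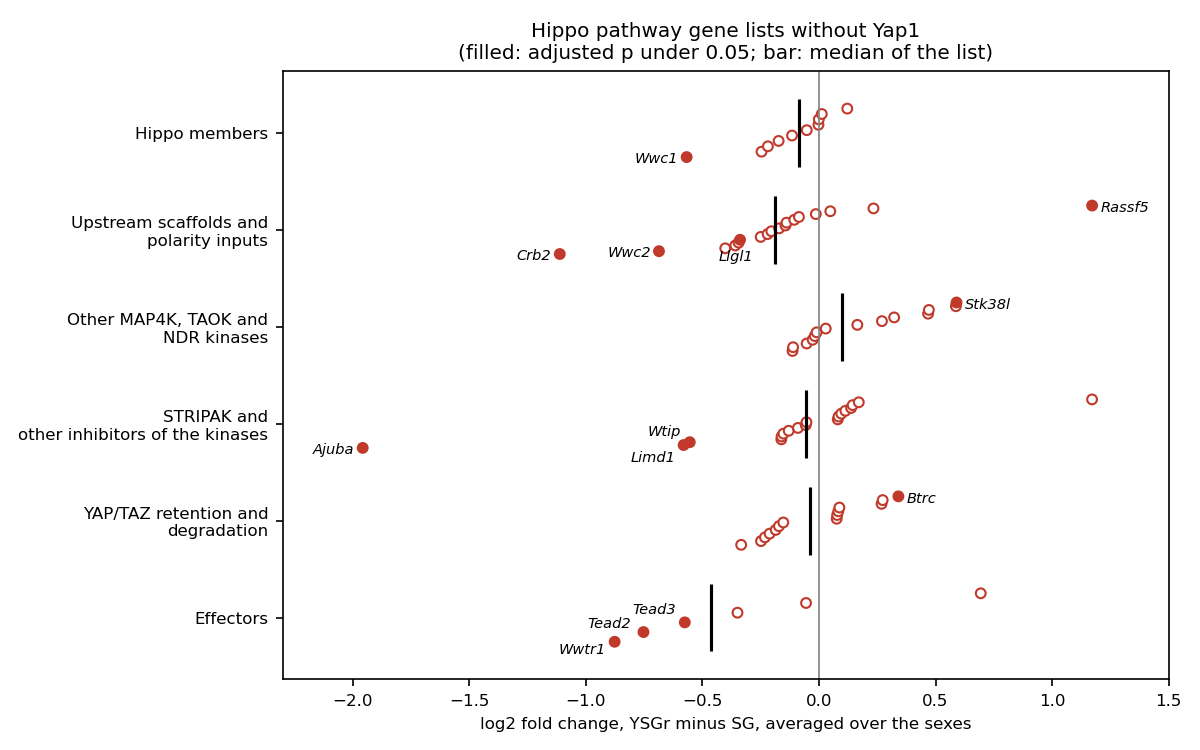
Log2 fold change of YSGr against SG, averaged over the sexes (horizontal axis), for the 10 Hippo genes and 5 lists of other pathway genes (rows), without Yap1. Points are genes, filled where the adjusted p is under 0.05, and bars are list medians; Ajuba at -1.96 lies farthest left and the effectors have the lowest median, -0.46.

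Markers of several cell types moved with genotype, and their counts stand beside 6.16% of all genes called higher and 5.27% called lower. In bulk tissue, fewer cells of a type and less RNA per cell cannot be told apart. The summed level of 10 macrophage and monocyte markers was 201 to 275 CPM in SG and 446 to 845 CPM in YSGr, and 7 of the 10 rose. For neutrophil markers the sums were 10.6 to 14.8 and 16.6 to 43.7 CPM. Of 10 listed, 8 had values and 6 passed the filter, and 6 of these 6 rose. A low marker can pass the filter through YSGr libraries alone, so that count is not a share of the list. Endothelial marker sums were 153 to 229 CPM in SG and 102 to 193 CPM in YSGr, and 5 of 10 fell. Granule neuron progenitor sums were 4666 to 5784 CPM in SG and 3393 to 5749 CPM in YSGr, and 5 of 10 fell. Sums for differentiating granule neurons were 1990 to 2555 and 2412 to 3484 CPM, and 4 of 10 rose. Of 10 oligodendrocyte lineage markers 3 fell, of 10 pericyte, fibroblast and meningeal markers 3 fell and 1 rose, and of 10 astrocyte markers 2 fell and 1 rose. Of 10 microglia markers 1 fell, and 1 of 7 ependyma and choroid plexus markers fell, a list that holds Clic6, which followed Nf2. In limma 0 of 2 T cell markers tested and 0 of 10 Purkinje cell and interneuron markers passed, with 0 and 3 at an unadjusted p under 0.05. Of 10 T cell markers listed, 9 had values and 2 passed the filter. Of 10 ependyma and choroid plexus markers listed, 9 had values and 7 passed. No listed gene with values was at 0 in all libraries, and genes without values could not be counted. The part of these cell types in the levels of Wwc1, Nf2, Lats2 and Mob1b was not tested.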

How the data were processed

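Total RNA of 12 tumour libraries was sequenced by BGI with a BGISEQ-500 instrument, per the labels' protocols. The authors deposited 1 table of log2 CPM values. Per the submitters' processing notes the tools were edgeR 3.30.3, Picard 1.95, Bowtie2, RSEM 1.2.12 and Trimmomatic 0.33, with mm10. The step each tool served, the gene annotation, the scaling between libraries and the use of strand were not given in the sources used here. The lowest value was -2.24 log2 CPM in all libraries, which fits a prior averaging 2 reads, so fold changes of low genes are understated. The step between low values gave estimated reads, whole within 0.02 reads for 92.1 to 93.09% of genes. A floor of 3 reads is 0.301 to 0.333 CPM. No 2 libraries were identical (0 pairs).

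Values were tested as deposited with limma 3.58.1 (R 4.3.3, statmod 1.5.0). The model had 1 coefficient per genotype and sex and a mean-variance trend, with two-sided tests, Benjamini-Hochberg adjustment over 14147 genes and a threshold of 0.05. The script was tested on simulated data first. Alternatives were no filter, log2(CPM + 1), no trend, library weights, median centring, quantile normalization, sex as an additive term or left out, single-sex fits, and leaving out each library or the 2 that stand apart.

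The genes, lists, markers and naming rule were chosen with earlier results of these data known. The rule names all 10 genes, Yap1, Wwtr1, every gene of the Hippo lists past the threshold in the averaged contrast (1 list gene is not reported here and was left out of its list), and the 3 genes most correlated with each member. Mink1 and Map4k2 lie outside it and were named after their values were seen. Gene positions and transcript lengths are from GENCODE M21 (mm10), and promoter windows from RefSeq (GRCm38.p6).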

Additional observations from a re-analysis of the deposited data

Results flagged for a closer look

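SG male 2 was the lowest SG library for 8 of the 10 genes by a gap that was large against the SG range, though not always large in log2 units. Its gap to the nearest SG library, as a share of the range of the 6 SG libraries, was 0.685 for Stk4, 0.894 for Lats1, 0.833 for Lats2, 0.8 for Sav1, 0.656 for Mob1a, 0.819 for Mob1b, 0.883 for Wwc1 and 0.839 for Taok1. All 8 shares exceed the critical value for 6 libraries. SG male 2 was lowest with such a gap in 2125 of the 14147 genes tested. YSGr female 11 was the lowest YSGr library for Lats1 in the same way, with a share of 0.655. These are 9 flags among 26 sets of values examined, and 8 of the 9 are SG male 2. Chance flags about 1 in 20 separate sets. These sets share the same libraries, so that rate does not apply to their count.

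Lats1 and Lats2 had all YSGr males above the SG male mean and all YSGr females below the SG female mean. The female minus male difference was -0.572 for Lats1 and -0.763 for Lats2, and neither passed the test of that difference. The SG male means include SG male 2, and without it the differences were -0.13 and -0.38.

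Across all genes 1 gene passed the test of the female minus male difference: Hmga1b, at -4.58 log2 units (adjusted p = 1.2e-05), named after its value was seen. It has a near-identical copy, so its level is uncertain.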

How the results depend on the processing

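With 8854766 to 9478651 estimated reads per library depth limits only low genes such as Crb2, and spread between libraries limits the rest. The averaged call of Wwc1 held under every alternative run. Counts were within 1.5 times of those reported except as follows, and the cause was not tested where no library is named. Without a filter 2 of the 10 genes passed in the averaged contrast, as did 1580 of 15672 genes in all. Library weights gave 4986 genes in the averaged contrast, 4483 in females, 2326 in males and 675 for female minus male, with 5, 5 and 1 of the 10 genes in the first 3. Of 14147 genes, 2538, 2258 and 1027 were called lower with such weights in these contrasts. Fits of 1 sex alone gave 761 genes in females and 318 in males. Without SG male 2 and YSGr male 8 there were 1268 genes in females and 245 in males, and 3, 3 and 1 of the 10 genes in the averaged, female and male contrasts, against 6.98%, 5.08% and 0.755% of all genes called lower. With 1 library left out, 900 to 2088 genes passed in the averaged contrast, 94 to 785 in females, 286 to 1662 in males and 1 to 119 for female minus male. Of the 10 genes, 1 to 4 then passed in the averaged contrast and 0 to 2 in females.

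Signs changed for differences that did not pass. Stk3 averaged -0.0032 with library weights, -0.0014 with median centring and -0.0133 with quantile normalization, and Stk4 averaged 0.0086 without the pair of libraries that stand apart. Without that pair Taok1 averaged -0.0499, and the male values were -0.1027 for Lats1 and -0.1288 for Lats2. With library weights these were -0.0158, -0.0929 and -0.1437. With 1 library left out the averaged ranges were -0.0882 to 0.1721 for Stk3, -0.0908 to 0.0525 for Stk4, -0.2193 to 0.1133 for Lats1, -0.1392 to 0.0419 for Mob1a and -0.0322 to 0.2092 for Taok1. The male ranges were -0.1519 to 0.5132 for Lats1 and -0.1739 to 0.4368 for Lats2, and that of the Stk3 to Stk4 balance was -0.1007 to 0.1304. No paired analysis was possible because the libraries carry numbers that no other library shares.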
